A study of Mus musculus with 37 samples.

Results

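Acute phase genes were followed in left ventricular RNA of mice after cardiac arrest. The list had 8 names, Serpina3n, Lcn2, Saa3, Hp, Orm1, Fgl2, Fgg and Pentraxin, and 7 of them matched a gene symbol among the 56748 genes of the table, with 1 row each. No row carries the symbol Pentraxin, so that family is described through its member genes. The list was chosen on measured values of these libraries, namely the levels of Serpina3n and Lcn2 in Arrest hearts at 0.5 and 1 days beside Naïve hearts. The other names were listed with earlier results of these data known, and all are treated alike. Levels and differences in comparisons with Naïve are therefore given as a description, without a test. Tests of these genes are reported where the choice did not use the comparison. Lists of related genes were tested in comparisons with Naïve as well. Those lists were chosen with earlier results of these data known, so their p-values are not independent of that knowledge.

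The acute phase response is the change in plasma proteins that follows injury or infection, and the liver is its best known source. Interleukin 6 family cytokines act through STAT3, interleukin 1 and tumour necrosis factor act through NF-κB, and C/EBP factors and glucocorticoids add to the response. Several of the genes are also transcribed outside the liver, in endothelial cells, fibroblasts, adipocytes and leukocytes. Serpina3n encodes a secreted inhibitor of serine proteases. Lcn2 encodes lipocalin 2, which binds iron-loaded siderophores, and Saa3 encodes a serum amyloid A protein made mainly outside the liver. Hp encodes haptoglobin, which binds free haemoglobin, and Orm1 encodes orosomucoid, a plasma carrier protein. Fgg encodes the gamma chain of fibrinogen, and Fgl2 encodes a fibrinogen-like protein of endothelial cells, macrophages and T cells.

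The data comprised 37 libraries in 9 groups of male and female C57BL/6J mice aged 8 to 10 weeks, all anesthetized with isoflurane. The 5 Naïve mice received no injection and were not intubated. Both Adr (sham in the sample labels) and Arrest mice were intubated and put on a ventilator. Adr mice were given saline and then adrenaline into the left ventricle. Arrest mice were given potassium chloride there to stop the heart, followed after a period of asystole by adrenaline and chest compressions. Hearts of Adr and Arrest mice were taken on days 0.5, 1, 3 and 7, with 4 libraries in each group. The labels list each library as a separate sample and do not say which animal it came from, so p-values measure the spread between these libraries. Values are FPKM as deposited, fragment counts scaled to gene length and by a factor for each library, so that levels of different genes are compared per length. The deposited values had the same median-ratio factor, 1.013, in all libraries, so they were already on a common scale by that measure. They were not scaled to the counted fragments of each library.

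Libraries held 13.2 M to 30.2 M counted fragments. Adr replicate 3 at 3 days stood apart, with 9.36% of its fragments on mitochondrial genes against 20.8% to 30.9% in the other 36 libraries, and Naïve replicate 4 had a value above 0 for 13475 genes against 15398 to 21377 elsewhere. Values without these libraries are given where they bear on a result. Cardiomyocyte markers had the highest sum of the cell type marker lists in each library, with summed levels of 3652 FPKM in Adr replicate 3 at 3 days, 8081 FPKM in Adr replicate 4 at 3 days, 8227 FPKM in Arrest replicate 1 at 3 days and more in the other 34. In Adr replicate 3 at 3 days the monocyte and macrophage markers summed to 2935 FPKM. In whole ventricle, fewer cells of a type and less RNA per cell cannot be told apart.

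Promoter sequences are shown for the 3 genes whose levels stood farthest above Naïve in Arrest hearts. Each is the 250 bases before the gene's start on the gene's own strand, from RefSeq for build GRCm38.p6, and 5 of the 8 names had an entry. Hp, Orm1 and Pentraxin had none. Capitals mark matches to the C/EBP motif TTNNGNAA on either strand. No match to the STAT motif TTCNNNGAA or to the kappa-B consensus lies in these 3 windows.
Serpina3n, chr12:104406458-104406707, plus strand: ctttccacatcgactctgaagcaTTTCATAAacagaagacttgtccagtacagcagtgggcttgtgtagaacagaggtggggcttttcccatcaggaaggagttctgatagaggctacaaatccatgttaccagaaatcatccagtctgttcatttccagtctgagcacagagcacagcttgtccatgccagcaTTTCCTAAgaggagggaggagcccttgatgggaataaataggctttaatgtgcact
Lcn2, chr2:32387740-32387989, minus strand: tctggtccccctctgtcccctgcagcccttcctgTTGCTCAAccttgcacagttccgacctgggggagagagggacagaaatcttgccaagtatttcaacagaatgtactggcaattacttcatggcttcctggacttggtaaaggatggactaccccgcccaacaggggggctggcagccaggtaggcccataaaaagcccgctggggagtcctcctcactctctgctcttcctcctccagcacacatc
Saa3, chr7:46715677-46715926, minus strand: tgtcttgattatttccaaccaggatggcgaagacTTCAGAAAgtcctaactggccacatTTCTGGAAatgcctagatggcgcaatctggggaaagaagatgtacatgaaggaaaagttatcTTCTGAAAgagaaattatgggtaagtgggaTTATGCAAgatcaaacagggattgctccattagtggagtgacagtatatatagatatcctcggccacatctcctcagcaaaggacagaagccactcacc
The Serpina3n window held 2 C/EBP matches, the Lcn2 window 1 and the Saa3 window 4. The Fgl2 window held 1 C/EBP match and 1 STAT match, and the Fgg window held none of the 3 motifs. Among 32851 promoters of the same length, 36.8% held a C/EBP match, 7.02% a STAT match and 7.25% a kappa-B match, so that a C/EBP match is a common feature. The motifs do not overlap in these windows, and a match of letters is not a binding site.

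Serpina3n had the highest level of these genes in Arrest hearts at 0.5 and 1 days. It is on chromosome 12, at positions 104372988 to 104380588 of the table's own coordinates, whose build is not given in the sources used here. Naïve libraries held 3.03, 1.49, 4.39, 18.9 and 2.45 FPKM. Arrest libraries held 104.7, 193, 111.4 and 160.1 FPKM at 0.5 days, and 218, 164, 183 and 94.7 FPKM at 1 day. All 8 of these libraries lay above the highest Naïve library, which was replicate 4. At 3 days the Arrest libraries were scattered, with 114.5, 13.1, 4.89 and 25.2 FPKM. At 7 days they held 5.36, 12.7, 8.02 and 3.72 FPKM, within the Naïve range, whose top was set by replicate 4. The other Naïve libraries held 1.49 to 4.39 FPKM.

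In Adr hearts the group means of Serpina3n lay between those of Naïve and Arrest hearts at 0.5 and 1 days, though single libraries overlapped with Naïve or Arrest. At 0.5 days the libraries fell into a low pair of 8.84 and 13.3 FPKM and a high pair of 114.6 and 91.7 FPKM. At 1 day they held 29.6, 46.6, 113.7 and 26.8 FPKM, all above the highest Naïve library. At 3 days replicates 1 to 3 held 5.49, 1.30 and 13.8 FPKM, and replicate 4 held 214 FPKM, close to the highest Arrest library. At 7 days the Adr libraries held 3.04, 2.25, 5.97 and 7.05 FPKM.

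On the log2(FPKM + 1) scale, the Serpina3n difference from Naïve was 4.74 (SE 0.88) in Arrest at 0.5 days and 4.94 (SE 0.88) at 1 day. Without Naïve replicate 4 the first of these was 5.23. The difference was 2.11 at 3 days and 0.59 at 7 days, with the same SE, and the latter was 1.08 without Naïve replicate 4. In Adr the differences were 2.76, 3.16, 1.51 and 0.01 on days 0.5, 1, 3 and 7. Ordered by group mean, Arrest at 1 day (165 FPKM) and at 0.5 days (142 FPKM) were followed by Adr at 3, 0.5 and 1 days (58.7, 57.1 and 54.2 FPKM) and Arrest at 3 days (39.4 FPKM). Arrest at 7 days, Naïve and Adr at 7 days came last, with 7.46, 6.05 and 4.58 FPKM. No 2 neighbours in this order differed by more than the larger of their SDs. The mean of Adr at 3 days rested on replicate 4, and the median of that group was 9.66 FPKM. Adr replicate 4 and Arrest replicate 1, the libraries high in Serpina3n at 3 days, had cardiomyocyte marker sums of 8081 and 8227 FPKM against 12755 to 15293 FPKM in Naïve, endothelial sums of 231 and 299.97 FPKM against 171 to 182 FPKM, neutrophil sums of 23.7 and 32.5 FPKM against 0 to 11.9 FPKM, macrophage sums of 856 and 969 FPKM against 429 to 712 FPKM, and hepatocyte sums of 13.2 and 21.5 FPKM against 2.40 to 4.799 FPKM. The mesothelial sums of these 2 libraries (53.8 and 68.5 FPKM) and their adipocyte sums (1.51 and 0.203 FPKM) lay within the Naïve range. Fibroblast sums were 552 and 380 FPKM against 314 to 418 FPKM. Adr replicate 3 at 3 days, with 13.8 FPKM of Serpina3n, had cardiomyocyte, neutrophil and macrophage sums of 3652, 33.1 and 2935 FPKM. In Arrest replicate 4 at 3 days, with 25.2 FPKM, these were 9758, 7.47 and 1394 FPKM. The part of these cells in the Serpina3n levels was not tested.

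**Figure D1:**
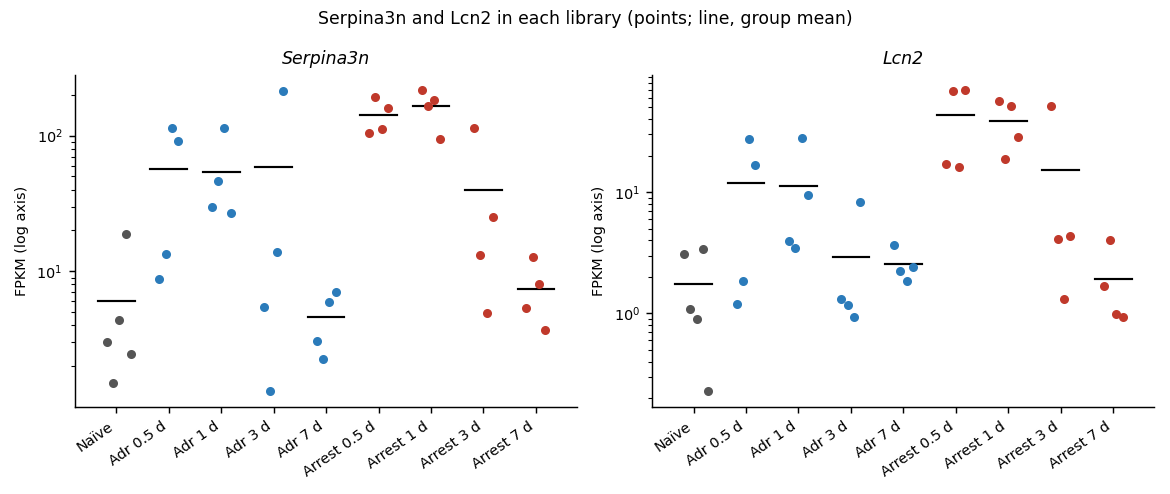
Serpina3n (left) and Lcn2 (right) in FPKM on a log axis, with 1 point per library in each of the 9 groups and a line at the group mean (grey, Naïve; blue, Adr; red, Arrest). For both genes the Arrest libraries at 0.5 and 1 days lie above all 5 Naïve libraries, and the 7-day libraries overlap them.

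Lcn2 on chromosome 2 followed Serpina3n at a lower level. Naïve libraries held 3.09, 1.08, 0.899, 3.42 and 0.227 FPKM. Arrest libraries held 17.1, 68.9, 16.02 and 70.2 FPKM at 0.5 days and 56.4, 18.9, 51.2 and 28.6 FPKM at 1 day, again with no overlap with Naïve. At 3 days replicate 1 held 51.4 FPKM, and the other 3 Arrest libraries held 4.11, 1.32 and 4.34 FPKM. At 7 days the Arrest libraries held 1.69, 4.05, 0.986 and 0.937 FPKM.

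The Adr libraries split for Lcn2 as they did for Serpina3n. At 0.5 days replicates 3 and 4 held 27.6 and 16.8 FPKM and replicates 1 and 2 held 1.203 and 1.84 FPKM. At 1 day the values were 3.97, 3.45, 27.95 and 9.52 FPKM, all above the Naïve range. At 3 days they were 1.32, 1.17, 0.932 and 8.25 FPKM, with the same library highest as for Serpina3n, and at 7 days 3.70, 2.23, 1.86 and 2.40 FPKM. The difference from Naïve was 3.84 (SE 0.74) and 3.89 (SE 0.74) in Arrest at 0.5 and 1 days on the log2(FPKM + 1) scale, and 1.61 and 1.88 in Adr. By group mean, Arrest at 0.5, 1 and 3 days led with 43.1, 38.8 and 15.3 FPKM, then Adr at 0.5 and 1 days with 11.9 and 11.2 FPKM, and the 3- and 7-day Adr, 7-day Arrest and Naïve groups held 2.92, 2.55, 1.92 and 1.74 FPKM. No 2 neighbours in this order differed by more than the larger SD.

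Saa3 on chromosome 7 was not detected in any of the 5 Naïve libraries, and was present in 24 of all 37. A count of 0 in the Naïve libraries allows a level of up to 0.0160 FPKM, taken as 3 fragments over the group and covering counting error only. Arrest libraries held 1.12, 1.27, 0.494 and 18.5 FPKM at 0.5 days, where replicate 4 alone gave 1099 of the group's 1216 fragments. At 1 day they held 5.01, 1.44, 1.37 and 0.0679 FPKM, and at 3 days 6.67, 0.900, 0.148 and 0.236 FPKM. All 12 of these libraries were above 0, the lowest with 3 fragments. The Arrest mean was at least 333-fold higher than in Naïve at 0.5 days, and at least 60-fold higher without replicate 4. At 1 day the bound was 123-fold, and 59.7-fold without its highest library.

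In Adr hearts Saa3 stayed near 1 FPKM or below. Its libraries held 0.185, 0.272, 0.666 and 1.07 FPKM at 0.5 days. Of the Adr libraries at 1, 3 and 7 days, 2 in each group were at 0, and the highest held 0.857, 0.464 and 0.305 FPKM. In Arrest at 7 days 2 libraries were at 0 and the highest held 0.311 FPKM. On the log2(FPKM + 1) scale, which understates changes at such levels, the difference from Naïve was 1.77 (SE 0.51) in Arrest at 0.5 days, and 0.94 without replicate 4. At 1 and 3 days it was 1.29 and 1.08. The related Saa1 was above 0 in libraries of 3 groups and at most 0.173 FPKM, and Saa2 and Saa4 were at 0 in all 37 libraries.

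Hp on chromosome 8 was low and uneven, and the order of its groups was unlike that of Serpina3n. Naïve libraries held 0, 0.353, 0, 0 and 0.879 FPKM. The highest values came from Adr libraries, 13.6 and 6.41 FPKM at 1 day, 8.44 FPKM at 3 days and 9.32 FPKM at 7 days, and from 1 Arrest library at 7 days with 7.56 FPKM. The other libraries of these groups held at most 3.23 FPKM. Arrest libraries held 3.51, 1.77, 0.401 and 4.86 FPKM at 0.5 days and 1.14, 1.17, 2.41 and 3.01 FPKM at 1 day, and at most 0.755 FPKM at 3 days. Group means ran from 5.35 ± 6.11 FPKM (SD, n = 4) in Adr at 1 day to 0.350 ± 0.335 FPKM in Arrest at 3 days and 0.246 ± 0.385 FPKM (SD, n = 5) in Naïve. Of the neighbours in this order, Adr at 0.5 days (1.83 FPKM) and Arrest at 3 days differed by more than the larger SD, though their libraries overlapped.

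Fgl2 on chromosome 5 was present in all 37 libraries, with group means from 20.4 FPKM in Naïve to 32.4 FPKM in Arrest at 0.5 days. Naïve libraries held 22.7, 17.8, 19.0, 22.0 and 20.8 FPKM. Arrest libraries held 15.4, 46.8, 33.0 and 34.5 FPKM at 0.5 days, where 3 lay above and 1 below the Naïve range, and 30.8, 24.9, 30.5 and 23.3 FPKM at 1 day, all above it. Adr libraries ran from 16.7 to 38.5 FPKM at 0.5 days and from 20.02 to 25.8 FPKM at 1 day. The difference from Naïve on the log2(FPKM + 1) scale was 0.55 (SE 0.24) in Arrest at 0.5 days, 0.34 without replicate 2 and 0.85 without replicate 1, and 0.40 (SE 0.24) at 1 day. From 3 days on, group means lay between 20.7 and 24.1 FPKM, beside 20.4 ± 2.05 FPKM (SD, n = 5) in Naïve.

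**Figure D2:**
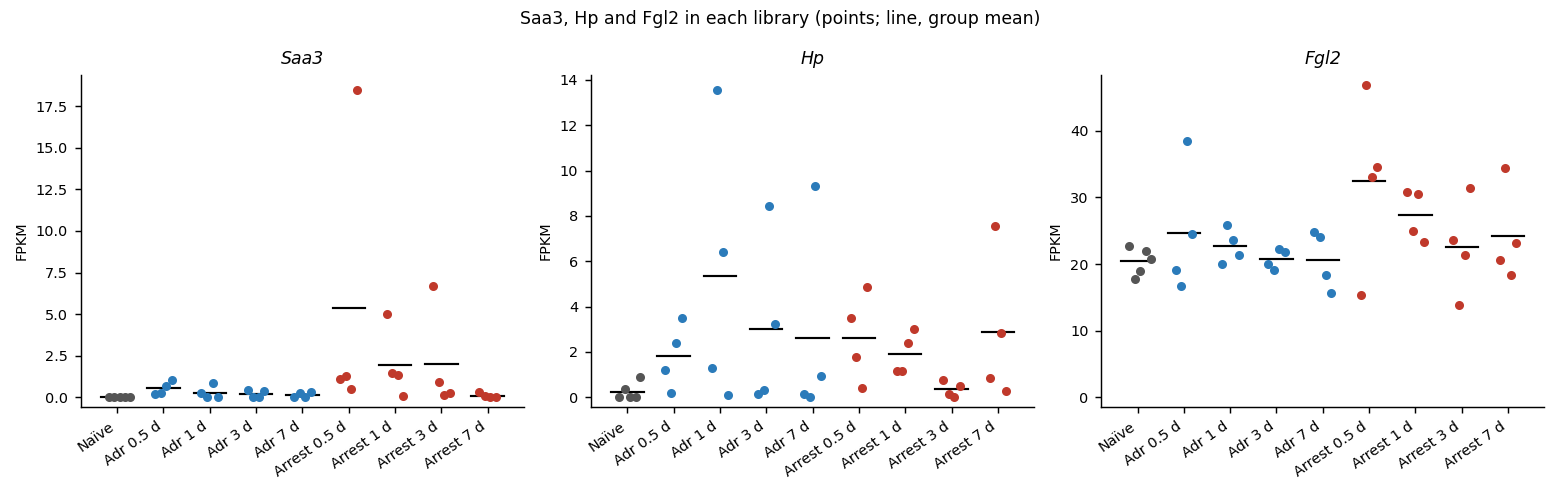
Saa3, Hp and Fgl2 in FPKM (linear axes that differ between panels), with 1 point per library and a line at the group mean (grey, Naïve; blue, Adr; red, Arrest). Saa3 is at 0 in all 5 Naïve libraries and highest in 1 Arrest library at 0.5 days with 18.5 FPKM, the highest Hp values are in Adr libraries, and Fgl2 overlaps between most groups.

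Orm1 on chromosome 4 and Fgg on chromosome 3 were at or near 0. Orm1 was above 0 in 4 libraries, with 0.170 FPKM in Arrest replicate 4 at 0.5 days, 0.748 FPKM in Adr replicate 3 at 3 days, 0.238 FPKM in Arrest replicate 4 at 3 days and 0.327 FPKM in Arrest replicate 2 at 7 days. These values rest on 3, 14, 6 and 4 fragments. Fgg was above 0 in a single library, Arrest replicate 4 at 0.5 days, with 2 fragments. Neither gene passed the filter of at least 0.5 FPKM in at least 4 libraries, so 5 of the 7 genes were fitted. The other fibrinogen chains were likewise scarce, Fga at most 0.131 FPKM and Fgb at most 0.0565 FPKM in any library. Alb, which encodes albumin and defines hepatocytes, was above 0 in 6 of 37 libraries and at most 0.460 FPKM.

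For the pentraxins, 7 family genes were looked up and 3 passed the filter. Ptx3, which encodes the long pentraxin made by endothelial cells and leukocytes, held 0.748 ± 0.631 FPKM (SD, n = 5) in Naïve and 1.89 ± 2.43 FPKM (SD, n = 4) in Arrest at 0.5 days, where a single library held 5.38 FPKM and the lowest 0.216 FPKM. Crp, the C-reactive protein gene, was at most 0.215 FPKM in any library, and Apcs, which encodes serum amyloid P, was at 0 in all of them. No pentraxin was called in any of the 8 comparisons with Naïve (limma, adjusted p of at most 0.05).

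Of 16530 genes tested with limma, 531 or 3.21% were called in Arrest at 0.5 days against Naïve, 290 higher and 241 lower. Among the 5 acute phase genes fitted, Serpina3n, Lcn2 and Saa3 were in this number, but the choice of the list used this contrast and nothing is read from the count. Without Adr replicate 3 at 3 days, which enters through the shared spread, 910 genes were called, and without Arrest replicate 2 at 0.5 days 125. At 1 day 1176 genes or 7.11% were called, and nothing is read from the 2 acute phase genes among them, since the choice used this contrast as well. All 5 genes lay wholly above Naïve at 1 day and 3 of them at 0.5 days, beside 5.71% and 4.49% of all genes tested.

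None of the 5 genes was called in Adr against Naïve at 0.5 days, where 31 genes or 0.188% were, nor at 1 day, where 114 genes or 0.69% were. At 1 day Serpina3n and Lcn2 lay wholly above Naïve, beside 2.51% of all genes, and at 0.5 days Saa3 did, beside 3.36%. At 3 days none was called in Arrest, with 23 genes or 0.139% called in all, and Saa3 lay wholly above Naïve, beside 1.74%. In Adr at 3 days and in both arms at 7 days limma called 0 genes (0%). At an unadjusted p under 0.05 there were 2295 in Adr at 3 days, 1017 in Adr at 7 days and 852 in Arrest at 7 days. These comparisons share the Naïve libraries, which the choice of genes used, so nothing is read from whether the 5 genes were called.

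The median difference from Naïve over the 5 genes fitted was 1.77 in Arrest at 0.5 days and 1.29 at 1 day on the log2(FPKM + 1) scale, beside 0.03 over all genes tested at both times. In Adr it was 1.06 and 1.75, beside 0.04, with Hp as the middle gene both times. Without Arrest replicate 4 at 0.5 days the first median was 1.10, and without Adr replicate 2 at 1 day that of Adr was 1.15. At 7 days the medians were 0.17 in Adr and 0.20 in Arrest, and 0.49 and 0.35 without Naïve replicate 4.

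**Figure D3:**
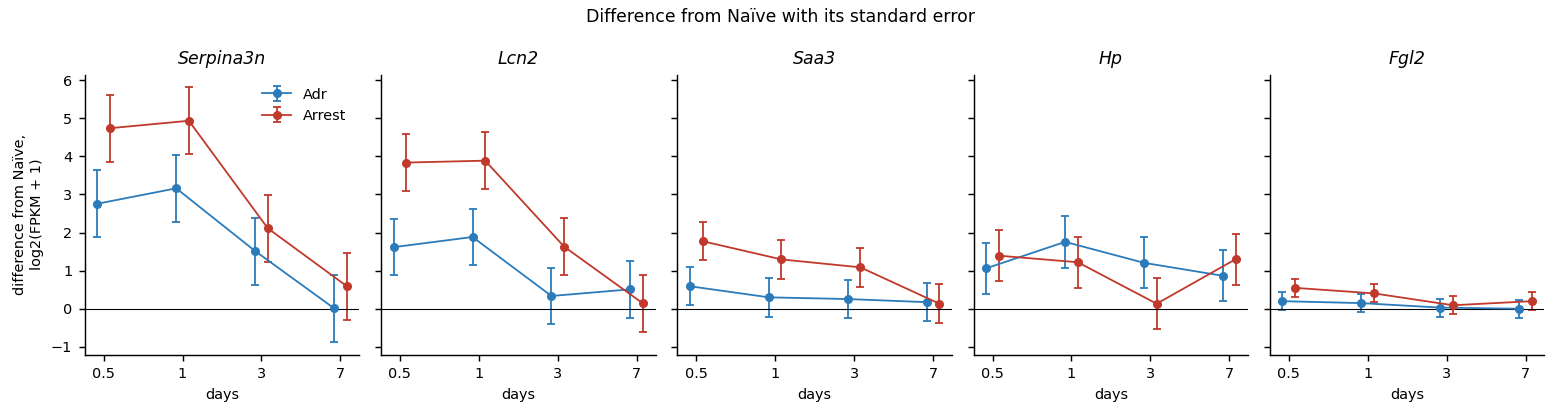
Difference from Naïve on the log2(FPKM + 1) scale (vertical axis) by day (horizontal axis, evenly spaced) for the 5 genes fitted, with bars of 1 SE from the fit of all libraries (blue, Adr; red, Arrest). Serpina3n reaches 4.94 and Lcn2 3.89 in Arrest at 1 day, and Fgl2 stays at or below 0.55 throughout.

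Arrest and Adr were set side by side on the same day. At 0.5 days Serpina3n was 1.99 (SE 0.93), Lcn2 2.22 (SE 0.78) and Saa3 1.18 (SE 0.53) higher in Arrest on the log2(FPKM + 1) scale, and at 1 day 1.78, 2.01 and 1.00. Saa3 was 0.35 higher at 0.5 days without Arrest replicate 4, and 0.57 at 1 day without Arrest replicate 1. Libraries of both arms overlapped for each of these genes at both times. These contrasts use the libraries of the choice and are given without a test. No gene of the 16530 was called in either (0%), with 638 and 1090 genes at an unadjusted p under 0.05. At 3 and 7 days, which the choice did not use, none of the 5 genes was called, with adjusted p from 0.906 to 1. The Serpina3n difference was 0.60 (95% interval -1.29 to 2.49) at 3 days and 0.58 (-1.31 to 2.47) at 7 days, and that of Lcn2 was 1.30 (-0.30 to 2.89) and -0.37 (-1.97 to 1.22). At 3 days these rested on single libraries, with -0.29 for Serpina3n without Adr replicate 2, 1.89 without Adr replicate 4, and 0.37 for Lcn2 without Arrest replicate 1. In all, 0 genes were called at 3 days and 1 (0.00605%) at 7 days, with 888 and 416 at an unadjusted p under 0.05.

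Whether the genes differed between early and late Adr hearts was tested with Adr at 7 days as the reference. Serpina3n was higher by 3.15 (95% interval 1.26 to 5.04) at 1 day and by 2.75 (0.86 to 4.64) at 0.5 days on the log2(FPKM + 1) scale. All 4 libraries lay above all 4 of 7 days in each case, as did 3.28% and 4.71% of all genes tested. Neither difference passed the threshold (limma with Benjamini-Hochberg adjustment over 16530 genes, adjusted p = 0.206 and 0.368). The unadjusted p was 0.00184 and 0.00575, and 1600 and 1340 genes had one under 0.05. An exact two-sided permutation test of each gene in 6 comparisons, whose smallest p is 0.0286, gave that value for both, and 0.429 after adjustment over 30 tests.

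The other genes showed smaller early differences in Adr. Lcn2 was 1.38 (-0.22 to 2.97) higher at 1 day than at 7 days, with an adjusted p of 0.606 by limma, and 1.11 (-0.49 to 2.70) higher at 0.5 days. Without replicate 3 of the earlier day these were 0.82 and 0.47. Lcn2 overlapped with 7 days at both times. For Saa3, Hp and Fgl2 the differences ran from 0.13 to 0.89 at 0.5 and 1 days, with adjusted p of at least 0.738. At 3 days the Serpina3n difference of 1.504 (-0.39 to 3.39) rested on replicate 4, and was 0.22 without it. Of all genes tested, 1 (0.00605%) was called at 0.5 days against 7 days, 7 (0.0423%) at 1 day and 0 at 3 days, with 874 at an unadjusted p under 0.05.

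In Arrest, 3 days was compared with 7 days. Serpina3n was higher by 1.52 (-0.37 to 3.41), Lcn2 by 1.49 (-0.10 to 3.09) and Saa3 by 0.95 (-0.13 to 2.04), and Hp was lower, with a difference of -1.17 (-2.62 to 0.28). None passed the threshold (limma, adjusted p from 0.709 to 0.962), and no gene of the 16530 was called (0%), with 1227 at an unadjusted p under 0.05. Replicate 1 at 3 days held the highest Serpina3n, Lcn2 and Saa3 of the group, and without it these differences were 0.73, 0.57 and 0.34.

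Within groups, Serpina3n and Lcn2 varied together. Each library's deviation from its group mean on the log2(FPKM + 1) scale was used, which is independent of differences between groups. Over 37 libraries Pearson's r was 0.767 and Spearman's rho 0.697, and 26 libraries lay on the same side of both group means. The permutation p within groups was 1e-05 for r, the smallest that 100000 permutations can give, and 0.00013 for rho. After adjustment over 29 relations these were 0.00029 and 0.00377. The r was 0.772 without the 2 libraries farthest from the Serpina3n median, and 0.771 without Naïve replicate 4 and Adr replicate 3 at 3 days.

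**Figure D4:**
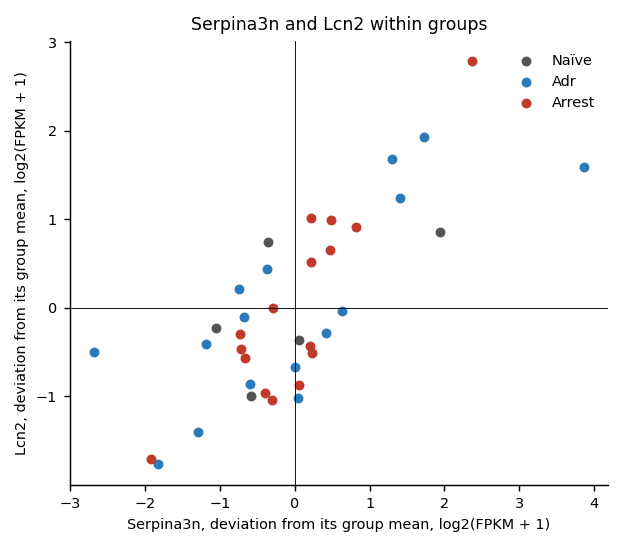
Deviation of Lcn2 (vertical) against deviation of Serpina3n (horizontal) from the group mean, on the log2(FPKM + 1) scale, with 1 point for each of 37 libraries (grey, Naïve; blue, Adr; red, Arrest). Points run from low in both genes to high in both, with r = 0.767.

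Saa3 also varied with these genes within groups, with r = 0.598 and rho = 0.644 for Lcn2 (permutation p = 0.00026 and 0.00054, adjusted 0.00377 and 0.00783) and r = 0.394 and rho = 0.486 for Serpina3n (permutation p = 0.00104 and 0.00607, adjusted 0.00754 and 0.0318). Without the 2 farthest libraries r was 0.655 and 0.448. Fgl2 correlated with Lcn2 by rho (0.491, adjusted permutation p = 0.0318) but not by r (0.508, adjusted permutation p = 0.067), and with Serpina3n likewise (rho = 0.467, adjusted p = 0.0318, r = 0.366, adjusted p = 0.067, by permutation). Hp correlated with Serpina3n by rho (0.538, adjusted permutation p = 0.018) and not by r (0.437, adjusted permutation p = 0.061). The labels give no pool or lane, so a technical factor shared by the genes was not tested.

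Neutrophils carry Lcn2 protein in their granules, so their markers were measured beside it. Of 12 neutrophil markers, Ly6g was at 0 in all libraries, Mpo and Elane were at most 0.225 and 0.784 FPKM, and S100a8 and S100a9 reached 16.7 and 14.9 FPKM. The summed level ran from 0 to 11.9 FPKM in Naïve, from 3.77 to 32.2 FPKM in Arrest at 0.5 days and from 6.08 to 19.6 FPKM at 1 day. In Adr it ran from 1.80 to 34.1 FPKM at 0.5 days and from 1.08 to 8.96 FPKM at 1 day. Of the Adr pair high in Lcn2 at 0.5 days, replicate 4 had the sum of 34.1 FPKM and replicate 3 that of 1.80 FPKM. At 3 days the sums ran from 2.92 to 33.1 FPKM in Adr and from 3.61 to 32.5 FPKM in Arrest. None of the 4 markers tested was called in any comparison with Naïve. Within groups, Lcn2 and the mean of the markers had r = 0.337 and rho = 0.297 (permutation p = 0.142 and 0.146, adjusted 0.375 and 0.407). For Serpina3n r was 0.31 (adjusted permutation p = 0.458). Without Naïve replicate 4 and Adr replicate 3 at 3 days, r was 0.458 for Lcn2 and 0.415 for Serpina3n. Without the 2 libraries farthest from each gene's median, it was 0.264 and 0.276. These values are given without a test. The part of neutrophils in these levels was not tested further.

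Hp was set beside adipocyte markers, a relation chosen after group means had been seen. Adipoq, Plin1, Cfd, Lep and Retn summed to at most 2.66 FPKM in Naïve and to 85.3 FPKM in Arrest replicate 2 at 7 days, which was the Arrest library with 7.56 FPKM of Hp. The Adr libraries with the highest Hp at 1 and 7 days, 13.6 and 9.32 FPKM, had sums of 27.7 and 28.6 FPKM. Within groups Hp and the mean of the markers had r = 0.682 and rho = 0.59 (permutation p = 0.00073 and 0.00365, adjusted over 29 relations 0.00706 and 0.0265), and r was 0.611 without the 2 farthest libraries. Among libraries with a sum no higher than in Naïve, 3 of 4 in Arrest at 0.5 days held 0.401 to 3.51 FPKM of Hp and 3 of 4 at 1 day held 1.17 to 3.01 FPKM. In Adr at 1 day the 2 such libraries held 0.121 and 1.31 FPKM.

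**Figure D5:**
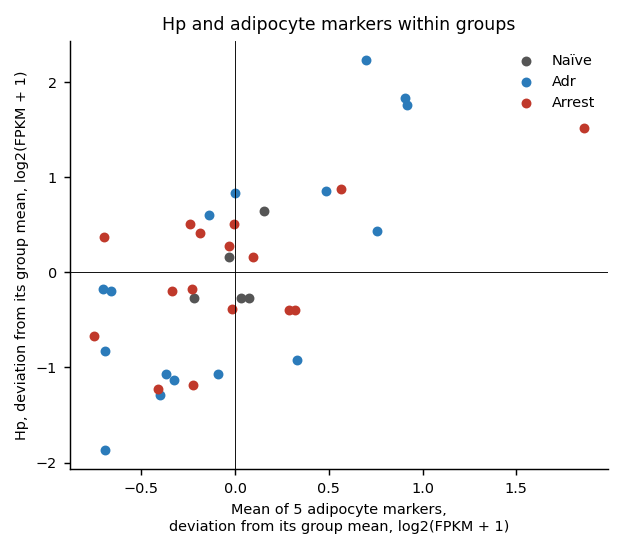
Deviation of Hp (vertical) against that of the mean of 5 adipocyte markers (horizontal) from the group mean, on the log2(FPKM + 1) scale, with 1 point for each of 37 libraries (grey, Naïve; blue, Adr; red, Arrest). Libraries high in the markers were mostly high in Hp, with r = 0.682, and the point farthest to the right is an Arrest library at 7 days.

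Markers of hepatocytes, the main source of plasma acute phase proteins, were measured in the same way. Of 10 markers, Alb, Apoa1, Cyp3a11, Cps1, Fabp1, Serpina1c and Fgb were at most 1.03 FPKM in any library, and Ahsg reached 23.9 FPKM in an Adr library at 1 day. The summed level ran from 2.40 to 4.799 FPKM in Naïve, from 6.04 to 11.9 FPKM in Arrest at 0.5 days and from 4.02 to 12.4 FPKM at 1 day. In Adr at 0.5 days the pair low in Serpina3n and Lcn2 had sums of 2.30 and 2.12 FPKM and the high pair 11.3 and 14.4 FPKM. In Adr at 1 day replicate 3, the highest library for both genes, had 26.3 FPKM against 3.42 to 7.95 FPKM in the others. The largest of these sums were mostly Ahsg, which reached 11.6 FPKM in Adr at 0.5 days and 23.9 FPKM at 1 day. In Arrest at 3 days it reached 20.7 FPKM. Alb was at 0 in all 4 Adr libraries at 0.5 days and at most 0.215 FPKM at 1 day. In Adr at 7 days replicate 1 had the highest summed level, 11.2 FPKM, with 3.04 FPKM of Serpina3n and 3.70 FPKM of Lcn2. Replicate 4 of that group had the lowest, 2.41 FPKM, with 7.05 FPKM of Serpina3n and 2.40 FPKM of Lcn2. Of the 3 markers tested, Ttr was called in Arrest at 1 day. Their part in the levels of the acute phase genes was not tested.

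Among other acute phase proteins, Lrg1, Lbp and Itih4 rose in Arrest hearts at both early times, and most were not called. Of 24 listed, 13 were tested, and 3 rose and 0 fell at 0.5 days, beside 3.21% called of all genes, while 4 rose and 0 fell at 1 day, beside 7.11%. C3, the central complement protein, was not called, with 78.1 ± 38.9 FPKM (SD, n = 5) in Naïve and 72.4 ± 42.3 FPKM (SD, n = 4) at 0.5 days. The median difference of the 13 was 0.66 and 0.53 on the log2(FPKM + 1) scale. Lrg1, a secreted glycoprotein that modulates transforming growth factor β signalling, held 8.47 ± 3.29 FPKM (SD) over the 5 Naïve libraries, and rose to 55.9 ± 27.2 FPKM at 0.5 days and 47.03 ± 23.2 FPKM at 1 day (limma, adjusted p = 0.00105 and 0.0016). Lbp, the lipopolysaccharide binding protein, went from 3.88 to 9.97 and 9.72 FPKM (limma, adjusted p = 0.0472 and 0.0364). Itih4, an inter-alpha-trypsin inhibitor heavy chain, went from 0.336 to 4.24 and 3.18 FPKM (limma, adjusted p = 0.0271 and 0.0484), and its relative Itih3 rose at 1 day from 0.0554 to 1.08 FPKM (limma, adjusted p = 0.0291). Leaving out each of 10 libraries in turn kept both Lrg1 calls in every fit, but lost those of Lbp in 8 and 7, of Itih4 in 4 and 8 and of Itih3 in 6, with adjusted p up to 0.211.

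Among 15 other clade A serpins, 6 were tested, and in Arrest 0 were called at 0.5 days, beside 3.21% of all genes, and 2 rose at 1 day, beside 7.11%. Serpina3m was at 0 in all Naïve libraries and at 1.36 ± 0.867 FPKM (SD, n = 4) at 1 day (limma, adjusted p = 0.00508), and Serpina3f held 0.0502 and 0.716 FPKM (limma, adjusted p = 0.0491). Both stayed far below Serpina3n, which held 94.7 to 218 FPKM in the same hearts. Serpina3m was called in all 10 fits without 1 library and Serpina3f lost its call in 6, with an adjusted p of up to 0.254. The clade A genes are close copies, as are the Saa and Orm genes, and how reads that fit several copies were counted is not given in the sources used here. Of 7 negative acute phase proteins, which the liver makes less of in inflammation, 4 were tested, and 1 was called at 1 day, beside the same 7.11%. This was Ttr, the transthyretin gene, which rose from 0 in each Naïve library to 0.937 ± 0.61 FPKM (limma, adjusted p = 0.00981), with the call lost in 2 of the 10 fits (adjusted p up to 0.0664).

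Upstream of these proteins, both genes called were receptors. Of 17 cytokine and receptor genes 11 were tested, and 2 rose and 0 fell in Arrest at 0.5 and at 1 day, beside 3.21% and 7.11% called of all genes. Osmr, the oncostatin M receptor, held 2.19 ± 0.689 FPKM (SD) over the 5 Naïve libraries, and rose to 8.74 ± 1.75 FPKM at 0.5 days and 6.74 ± 0.548 FPKM at 1 day (limma, adjusted p = 0.00105 and 0.00369). Tnfrsf1a, a tumour necrosis factor receptor, went from 17.9 ± 2.48 FPKM to 43.1 ± 2.002 and 41.1 ± 5.12 FPKM (limma, adjusted p = 0.000539 and 0.000434). All 4 calls were kept in the 10 fits that left out 1 library. Il6 was not detected in the Naïve libraries and held 1.09 ± 1.97 FPKM (SD, n = 4) in Arrest at 0.5 days, where the libraries ran from 0 to 4.04 FPKM.

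All 16 genes of the STAT3, C/EBP and NF-κB arm were tested. In Arrest 6 rose and 0 fell at 0.5 days, and 4 rose and 0 fell at 1 day, beside 3.21% and 7.11% called of all genes, with medians of 0.78 and 0.54. Socs3, a feedback inhibitor of STAT3 signalling, held 2.57 ± 1.13 FPKM (SD) over the 5 Naïve libraries, and rose to 14.4 ± 7.57 FPKM at 0.5 days and 10.3 ± 3.11 FPKM at 1 day (limma, adjusted p = 0.00736 and 0.0146). Cebpd, a C/EBP factor of the acute phase, went from 10.5 to 30.4 and 35.8 FPKM (limma, adjusted p = 0.0173 and 0.00534), and Junb, an AP-1 factor, from 8.85 to 32.0 and 47.7 FPKM (limma, adjusted p = 0.0447 and 0.00569). Bcl3, an atypical NF-κB inhibitor, rose at 0.5 days from 2.25 to 6.48 FPKM (limma, adjusted p = 0.0289), and Stat3 at 1 day from 12.4 to 19.7 FPKM (limma, adjusted p = 0.0103). Stat3 and Pim1, a kinase gene induced by STAT3, made up the rest of the 0.5-day calls and were named after their values were seen. The 0.5-day calls of Junb and Bcl3 were lost in 8 and 7 of 10 fits without 1 library, with adjusted p up to 0.218. Those of Socs3, of Cebpd, of Stat3 at 1 day and of Junb at 1 day were lost in at most 2, and Stat3 and Pim1 at 0.5 days were not refitted this way.

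In the glucocorticoid arm all 8 genes were tested, and in Arrest 1 rose and 1 fell at 0.5 days, beside 3.21% called of all genes, and 2 rose and 1 fell at 1 day, beside 7.11%. Nr3c1, the glucocorticoid receptor, fell in both arms at both early times, from 13.96 ± 1.24 FPKM (SD) over the 5 Naïve libraries to 8.95 and 9.32 FPKM in Adr and to 8.40 and 8.31 FPKM in Arrest at 0.5 and 1 days. The adjusted p by limma was 0.0374 and 0.0421 in Adr and 0.00327 and 0.00179 in Arrest. The Adr calls were each lost in 7 of 10 fits that left out 1 library (adjusted p up to 0.166), and the Arrest calls in none. Fkbp5, a chaperone gene induced by glucocorticoids, rose in Arrest from 1.48 to 10.4 FPKM at 0.5 days and 12.01 FPKM at 1 day (limma, adjusted p = 0.0358 and 0.0138), and Zbtb16, a transcriptional repressor also induced by glucocorticoids, rose at 1 day from 2.84 to 13.1 FPKM (limma, adjusted p = 0.0293). Leaving out 1 library lost these calls in 6, 1 and 5 of 10 fits, with adjusted p up to 0.155.

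Of 20 receptors, ligands and target proteases of the acute phase proteins, 15 were tested, and in Arrest 0 were called at 0.5 days and 1 at 1 day, beside the same 3.21% and 7.11%. Cd163, the macrophage receptor for haptoglobin-haemoglobin complexes, held 3.82 ± 0.433 FPKM (SD) over the 5 Naïve libraries and rose to 9.92 ± 2.48 FPKM in Arrest at 1 day, with an adjusted p of 0.039 by limma that was lost in 8 of 10 fits without 1 library (up to 0.113). Slc22a17, a lipocalin 2 receptor, stayed between 0.502 and 0.854 FPKM in group means and was not called. The monocyte and macrophage markers summed to 436 to 675 FPKM in Arrest at 1 day, within the 429 to 712 FPKM of Naïve, and none of 9 was called. None of these lists had a call in Adr other than Nr3c1, and none in either arm at 3 or 7 days.

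The sample descriptions carry a running number whose meaning the labels do not give. It was 116 to 127 in Naïve, 99 to 124 in Arrest at 0.5 days and 70 to 95 in Arrest at 1 day. In Adr it was 109 to 121, 71 to 102, 63 to 87 and 92 to 115 on days 0.5, 1, 3 and 7, and in Arrest 90 to 112 at 3 days and 83 to 128 at 7 days. Adr at 1, 3 and 7 days and Arrest at 1 and 3 days do not overlap Naïve, so that the number and the group cannot be told apart in these comparisons. With the number as a covariate in limma, 0 of the 17 list genes named for Arrest at 1 day kept their call, and 34 of 16530 genes were called in place of 1176. In Adr both Nr3c1 calls were lost, with 18 genes called in place of 31 at 0.5 days and 0 in place of 114 at 1 day, and in Arrest at 3 days 0 were called in place of 23. At 0.5 days 237 genes were called in place of 531, and Lrg1, Osmr, Tnfrsf1a, Socs3, Cebpd and Nr3c1, 6 of the 11 named, kept theirs.

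The genes whose pattern was most like that of Serpina3n were found by Pearson's r of log2(FPKM + 1) over 37 libraries, among 10692 genes with a mean of at least 1 FPKM. Lcn2 ranked first, with r = 0.896. The 10 highest others were Ly6a (0.895), Mt1 (0.894), Ly6c1 (0.869), Get4 (0.865), Fkbp5 (0.862), Osmr (0.862), Lrg1 (0.861), Mgst1 (0.859), Lbp (0.859) and Mmp3 (0.852). Mt1, a metallothionein that binds zinc and copper, held 114 ± 13.5 FPKM (SD, n = 5) in Naïve, 871 ± 507 FPKM (SD, n = 4) in Arrest at 0.5 days and 959 ± 527 FPKM at 1 day. Ly6a, a surface protein of endothelial and progenitor cells, held 101 ± 7.58 FPKM in Naïve and 274 ± 18.03 FPKM in Arrest at 0.5 days. The measure includes the group differences that the genes share with Serpina3n.

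With group means removed, the genes most like Serpina3n were St3gal1 (r = 0.823), Rnase4 (0.786), Gpx3 (0.784), Lyve1 (0.775) and Cd163 (0.764), and Lcn2 took rank 5 with r = 0.767. St3gal1 encodes a sialyltransferase, Rnase4 a secreted ribonuclease and Gpx3 the secreted glutathione peroxidase, while Lyve1 marks lymphatic endothelium and a population of resident macrophages. Saa3, Fgl2 and Hp ranked 352, 716 and 1215 by the first measure and 842, 1044 and 610 by the second. These coefficients are given as a description, since libraries share groups and genes are not independent.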

How the data were processed

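Bulk RNA-seq of mouse left ventricle was paired-end Illumina sequencing, aligned by the authors with HISAT2 and deposited as a table of FPKM per gene. Fragment counts were recovered from the steps of the FPKM values and the gene lengths (whole within 0.01 fragments). They served for depth, the mitochondrial share, the floor, the fragment numbers quoted and the alternative scaling by counted fragments, and not for the main fit. The genome build, annotation, counting tool and strand setting are not given in the sources used here. The study left out 1 Adr library at 3 days that the labels do not identify, and all 4 were kept.

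FPKM was divided by a median-ratio factor, which was 1.013 in all libraries and so left the ratios between libraries as deposited. The 16530 of 56748 genes that reached 0.5 FPKM in 4 or more libraries were tested on log2(FPKM + 1) with limma 3.58.1 in R 4.3.3. There was 1 fit of 37 libraries, with 1 mean per group, a mean-variance trend and Benjamini-Hochberg adjustment within each of 16 comparisons (threshold 0.05). The fit was tested on simulated data. Exact permutation tests, added after the data were seen, compared single genes, and relations within groups used 100000 permutations. The genes and the lists were chosen with earlier results of these data known. In each list up to 4 called genes with the largest differences per comparison are named, and by likeness to Serpina3n 10 genes over all libraries and 5 within groups. List genes named without a call were added for their roles after their values were seen. No molecular identifiers are mentioned, so the floor of 3 fragments covers counting error only. Alternatives were other scalings, pseudocounts, filters, blocks and samples.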

Additional observations from a re-analysis of the deposited data

Results flagged for a closer look

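Of 49 groups of 4 or 5 libraries, 12 held 1 library far from the rest by Dixon's criterion. Among normally distributed values chance meets it in about 1 of 20 groups. FPKM values need not be so distributed, and groups at 0 throughout were left out, so the 12 are not set against this rate. Serpina3n was 18.9 FPKM in Naïve replicate 4 beside 1.49 to 4.39 FPKM in the other Naïve libraries, and 214 FPKM in Adr replicate 4 at 3 days beside 1.30 to 13.8 FPKM. Lcn2 stood out in the same Adr library, with 8.25 FPKM beside 0.932 to 1.32 FPKM, and in Arrest replicate 1 at 3 days, with 51.4 FPKM beside 1.32 to 4.34 FPKM. That Arrest library was also far from its group for Saa3, with 6.67 FPKM beside 0.148 to 0.900 FPKM. Saa3 was 18.5 FPKM in Arrest replicate 4 at 0.5 days beside 0.494 to 1.27 FPKM, and Hp was 9.32 FPKM in Adr replicate 3 at 7 days beside 0 to 0.947 FPKM. The other 5 were single libraries above 0 in groups otherwise at 0, which meet the criterion whatever their level. For Orm1 these were Arrest replicate 4 at 0.5 days (0.170 FPKM), Adr replicate 3 at 3 days (0.748 FPKM), Arrest replicate 4 at 3 days (0.238 FPKM) and Arrest replicate 2 at 7 days (0.327 FPKM), and for Fgg Arrest replicate 4 at 0.5 days (0.0419 FPKM).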

How the results depend on the processing

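With a pseudocount of 0.1 in place of 1, the median difference from Naïve over the 5 acute phase genes was 2.46 in place of 1.06 in Adr at 0.5 days, 4.36 in place of 1.77 in Arrest at 0.5 days, 3.54 in place of 1.29 at 1 day and 2.18 in place of 1.08 at 3 days. It was also 2.56 in Adr at 1 day, 1.18 at 3 days and 0.93 at 7 days, and 0.75 in Arrest at 7 days, in place of 1.75, 0.33, 0.17 and 0.20. With the number of the sample description as a covariate, 0 in place of 2 of the genes were called in Arrest at 1 day, and Fgl2 in Adr at 3 against 7 days turned to -0.14. Scaling by counted fragments turned Fgl2 in Arrest against Adr at 3 days to -0.049. Leaving out 1 library at a time turned small differences that had not passed the threshold. Against Adr at 7 days, Hp ran from -0.18 to 0.94 and Fgl2 from -0.031 to 0.36 at 0.5 days, and Saa3 from -0.070 to 0.23 at 1 day. At 3 days Lcn2 ran from -0.70 to 0.049, Saa3 from -0.016 to 0.17, Hp from -0.24 to 1.08 and Fgl2 from -0.090 to 0.12. In Arrest at 3 against 7 days Fgl2 ran from -0.28 to 0.10. In Arrest against Adr, Serpina3n ran from -0.29 to 1.89 and Fgl2 from -0.11 to 0.26 at 3 days, and Saa3 from -0.13 to 0.030 and Hp from -0.070 to 1.18 at 7 days. The cause was not tested.

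Counts over all genes moved more. Without 1 library, 125 to 910 genes were called in Arrest at 0.5 days and 487 to 1703 at 1 day, 3 to 223 in Adr at 0.5 days, 27 to 416 at 1 day, 12 to 186 in Arrest at 3 days and up to 34 in Adr at 3 days. With the replicate number as a block the calls were 280, 768, 3, 49 and 12 for the first 5 of these. Samples share only a number: deviations of 144 same-numbered pairs had a median r of 0.00173, and 11 pairs were above 0.1. Under the block the median difference over the acute phase genes kept its direction in all 16 comparisons, with 1.77 in Arrest at 0.5 days and 1.38 at 1 day. Of 30 calls of named list genes, 11 were kept in every fit without 1 library.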
